A study of Mus musculus with 6 samples.

Results

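The 10 long noncoding RNAs described here were taken by gene name from a deposited table of 28812 mouse genes and divided by where the RNA acts. The nuclear-retained RNAs were the 3 genes Malat1, Neat1 and Miat. The hosts of small nucleolar RNAs (snoRNAs) were the 7 genes Gas5, Snhg1, Snhg3, Snhg8, Snhg12, Dancr and Epb41l4aos. All 10 names were found in the table, each on 1 row. The table holds 6 RNA-seq libraries of cultured mouse chondrocytes, the cells of cartilage, labelled as osteoarthritic (OA) and of wt genotype. All 6 had received IL-1β, an inflammatory cytokine. In 3 of them, called vehicle replicates 1 to 3, the cells were given vehicle, and in the other 3, called mitochondria replicates 1 to 3, they were given transplanted mitochondria. According to the title of the series these came from osteocytes, the cells embedded in bone. No library without IL-1β was analysed here, and strain, age and sex were not used here. Nothing in the labels says if replicates came from different mice or cultures, so p-values cover the spread among these 6 libraries, which may be technical. The RNA was selected with poly-T beads.

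Malat1 and Neat1 are abundant RNAs that stay in the nucleus and lie side by side on the same chromosome. Malat1 collects in nuclear speckles, bodies rich in splicing factors, and the long form of Neat1 is the scaffold around which paraspeckles assemble. Both are known for an unusual 3′ end: an enzyme that processes tRNAs cuts the precursor just after an A-rich tract, and the tract folds back on U-rich stretches upstream to form a triple helix that protects the end in place of a poly(A) tail. The short form of Neat1 ends at an ordinary poly(A) signal. The snoRNA hosts work in another way. Their introns are trimmed into snoRNAs, which guide chemical modification of ribosomal RNA, while the spliced exons leave the nucleus. Several hosts start with a pyrimidine-rich stretch like that of ribosomal protein genes and are degraded by nonsense-mediated decay, which removes messages with early stop codons as they are translated.

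The 3′ ends of Malat1 and of the 2 forms of Neat1 are shown because they differ in how poly-T beads could hold them. They were read from GENCODE M21 transcripts (GRCm38, minus strand) at chr19:5795973-5796077 for Malat1-201, chr19:5824708-5824812 for the long transcript Neat1-201 and chr19:5842307-5842366 for the short transcript Neat1-202. Capitals mark, in Malat1-201 and Neat1-201, each stretch of 11 or more bases that the 2 ends share, and in Neat1-202 the poly(A) signal AATAAA.
Malat1-201: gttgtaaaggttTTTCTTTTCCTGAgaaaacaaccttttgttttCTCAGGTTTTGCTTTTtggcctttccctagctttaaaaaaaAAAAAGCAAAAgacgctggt
Neat1-201: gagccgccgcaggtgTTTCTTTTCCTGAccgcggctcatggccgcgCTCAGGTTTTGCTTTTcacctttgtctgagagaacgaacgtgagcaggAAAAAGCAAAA
Neat1-202: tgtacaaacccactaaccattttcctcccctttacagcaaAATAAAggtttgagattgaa
The end of Neat1-201 as printed and the last 400 bases of Malat1-201 share 3 such stretches in the same order. Of these, 2 hold a U-rich run (written with T), TTTCTTTTCCTGA and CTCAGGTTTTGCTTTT, and the last is the A-rich tract AAAAAGCAAAA. All 3 stood in this order in the last 400 bases of 2 of 122312 annotated transcripts of at least that length (0.0016%), searched on the transcribed strand only. Those 2 were Malat1-201 and Neat1-201, from which the letters had been taken. In the annotation the long Neat1 transcript stops with the A-rich tract, whereas in Malat1-201 the tract begins 303 bases before the annotated end. How much of the RNA that lacks a poly(A) tail was recovered by the bead selection is not known from these data.

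The start sites of the hosts are shown for their pyrimidine runs, beside those of Malat1 and Miat. Each is 20 bases before and 20 after a RefSeq start on GRCm38.p6, on the gene's own strand, and capitals mark the longest unbroken run of C and T. Entries were found for 8 of the 10 genes, those other than Neat1 and Epb41l4aos.
Malat1: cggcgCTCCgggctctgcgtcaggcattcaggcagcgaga
Miat: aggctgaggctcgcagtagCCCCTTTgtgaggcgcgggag
Gas5 (the first of 2 starts): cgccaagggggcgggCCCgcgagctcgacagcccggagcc
Gas5 (the second of 2 starts): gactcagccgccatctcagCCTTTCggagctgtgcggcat
Snhg1: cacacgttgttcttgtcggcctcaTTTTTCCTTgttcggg
Snhg3: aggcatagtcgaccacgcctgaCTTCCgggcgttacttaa
Snhg8: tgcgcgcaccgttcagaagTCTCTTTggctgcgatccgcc
Snhg12: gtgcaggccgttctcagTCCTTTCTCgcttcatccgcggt
Dancr: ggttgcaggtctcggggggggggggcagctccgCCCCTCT
These windows lie at chr19:5802653-5802692 (minus strand) for Malat1, chr5:112228929-112228968 (minus) for Miat, chr1:161034581-161034620 and chr1:161035146-161035185 (plus) for Gas5, chr19:8723467-8723506 (plus) for Snhg1, chr4:132353667-132353706 (minus) for Snhg3, chr3:123508317-123508356 (minus) for Snhg8, chr4:132308658-132308697 (plus) for Snhg12 and chr5:74093040-74093079 (plus) for Dancr. The runs of Snhg1 and Snhg12 were 9 bases long, a length that 10.7% of 32851 promoter windows reach. Those of Snhg8, Dancr and Miat were 7 bases (24.3% of windows), that of Snhg3 5 (57.5%) and that of Malat1 4 (78.6%). Gas5 had a run of 3 at the first start (93.7%) and of 6 at the second (37.5%). The median window had a run of 5. The runs of Malat1 and Miat lay within the range of the hosts, 3 to 9, and so did not divide the hosts from the nuclear-retained RNAs. The run of Dancr reaches the end of its window, and its full length is not known from these letters. In Snhg8, Snhg12, Miat and the second start of Gas5 the run covers the annotated start. A run of C and T is a description of these letters and not a test of how the RNA is translated.

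The libraries held 63547854 to 66293786 deposited counts. One sequenced fragment was worth about 4 of these counts: low counts piled up at 4, at 2.31 to 2.84 times the number at neighbouring values. Levels are given as CPM (each count scaled to library size, with TMM factors). In a principal component analysis of log2 CPM, whose leading component took 40.6% of the variance, mitochondria replicate 1 stood apart at 90.2. The other mitochondria libraries lay at 28.5 and 37.2, vehicle replicate 1 at -33.4, and vehicle replicates 2 and 3 at -61.5 and -61.1. Of 8 chondrocyte markers all 8 were detected well enough to test, and their levels summed to 1827 to 2205 CPM in the vehicle libraries and to 1485 to 1693 CPM in the mitochondria libraries. Hapln1 and Col11a1, both matrix genes, fell (log2 fold change -1.03 and -0.94, edgeR adjusted p = 0.0091 and 0.0087), and Acan and Sox9 rose (0.54 each, adjusted p = 0.041 and 0.028). Of these, Acan was not called whichever library was left out, Sox9 not without vehicle replicate 2 or 3 or mitochondria replicate 2 or 3, and Hapln1 not without vehicle replicate 2 or 3. With GC offsets Acan was at 0.41 (adjusted p = 0.055) and Hapln1 at -0.48 (adjusted p = 0.029). With GC and length offsets Acan was called (0.58, adjusted p = 0.013) and Hapln1 was not (-0.37, adjusted p = 0.092). With no library left out, Col2a1 did not pass without offsets and was called lower with either kind. Without mitochondria replicate 1 it was also called lower with no offsets. The calls of these markers and of those that follow stand beside 14.8% of all 17290 genes tested that were called in either direction. Of 15 markers of other cells, 11 were tested, 3 fell by edgeR (Adipoq, Hba-a1 and Ctsk) and 8 did not pass (summed level 499.8 to 604 CPM with vehicle, 449 to 484 CPM with mitochondria). Most of that sum was Prg4, a marker of the cartilage surface and synovial lining, and without it the sums were 104 to 127 CPM and 90.0 to 96.6 CPM. Each of the 3 calls was lost when vehicle replicate 3 was left out. The osteoclast markers went opposite ways. Ctsk fell, while Acp5 lay higher with mitochondria and did not pass, with 119, 63 and 152 counts against 268, 156 and 171. Among the markers taken for macrophages, Adgre1 had 226, 59 and 126 counts against 283, 271 and 210. Csf1r had 299, 283 and 269 against 226, 208 and 229, and Ptprc 74, 43 and 137 against 31, 23 and 19. Cd68 had 179, 251 and 306 against 427, 283 and 314. None of these macrophage markers passed, but Adgre1 was called higher without vehicle replicate 1. The osteocyte markers Dmp1 and Sost had 0 to 4 counts in each library and Phex 0 to 33. The sample protocol also mentions adipose tissue. The adipocyte marker Adipoq was at 5.16 to 5.69 CPM with vehicle, and with mitochondria it was at 2.70 to 3.0 CPM. Whether these markers have any part in the lncRNA results below was not tested.

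Both nuclear-retained RNAs that could be tested were lower in chondrocytes given mitochondria, and none of the 7 snoRNA hosts passed the test. By edgeR 1 host had an unadjusted p under 0.05, and DESeq2 called 1 host, in both cases Snhg12. Malat1 fell by 57.0% and Neat1 by 37.8% in mean CPM. Of all 17290 genes tested, 8.46% were called lower, 6.36% higher and 14.8% in either direction (edgeR quasi-likelihood test, two-sided, Benjamini-Hochberg adjusted p under 0.05 over all genes tested). The median log2 fold change of the 7 hosts was 0.08 and that of all genes 0.003. With offsets for GC content, described further on, the medians were 0.34 and 0.019, and with offsets for GC content and length 0.22 and 0.030. Less RNA per cell and fewer cells of one kind cannot be told apart in bulk libraries.

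**Figure D1:**
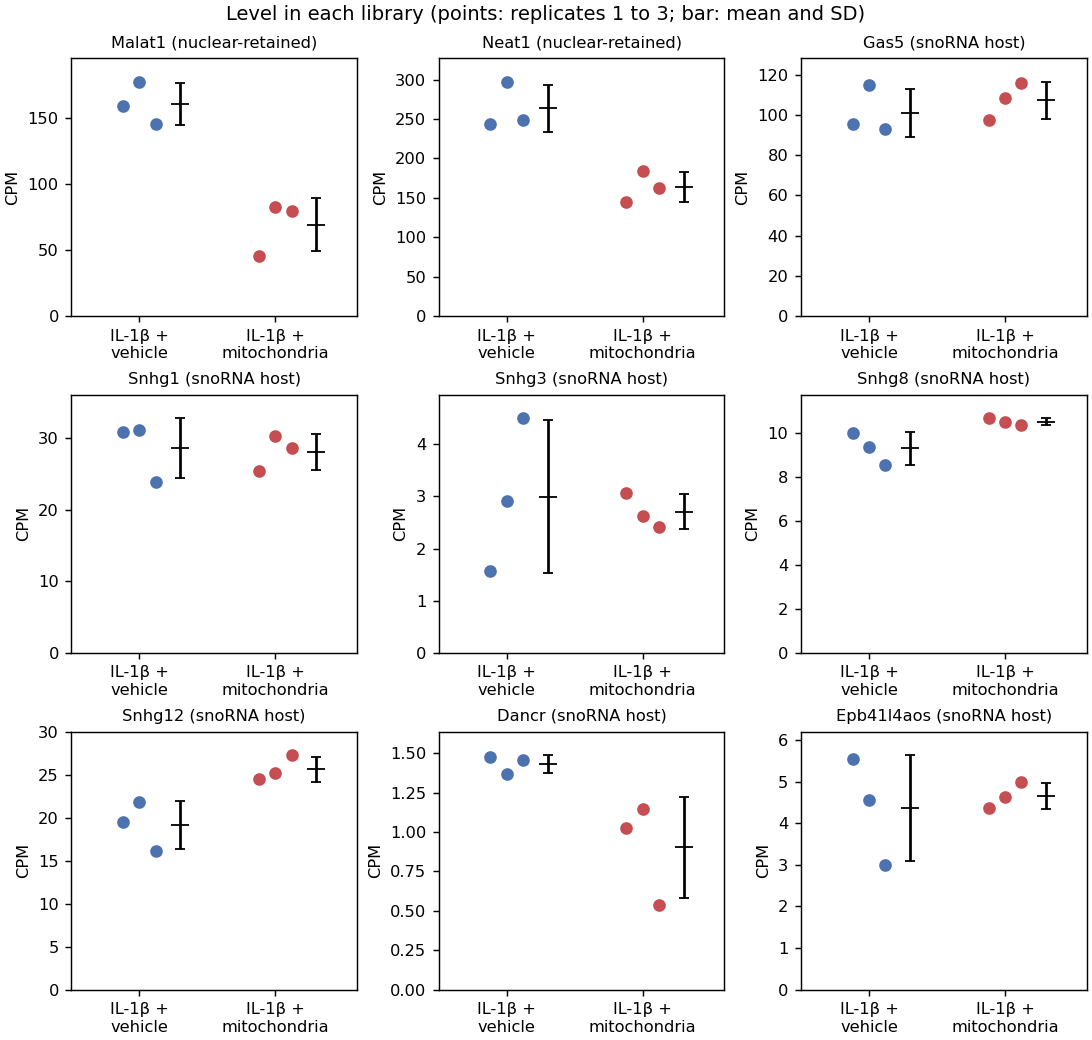
Level of the 9 tested lncRNAs in each library, in CPM on axes that start at 0. Points are replicates 1 to 3 from left to right, and bars give the mean and standard deviation of 3 libraries. For Malat1 and Neat1 every mitochondria library lies below every vehicle library, while for Gas5 and Snhg1 the groups overlap.

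Malat1 (ENSMUSG00000092341) spans chr19:5795690-5802672 on the minus strand of GRCm38 as a single exon of 6983 bases. Its level was 159, 177 and 146 CPM in vehicle replicates 1 to 3 and 45.8, 82.3 and 79.1 CPM in mitochondria replicates 1 to 3. The groups did not overlap, which was also true of 40.7% of all genes tested, and mitochondria replicate 1 was the lowest library. The vehicle libraries averaged 161 ± 16.0 CPM and the mitochondria libraries 69.1 ± 20.2 CPM (SD, n = 3 each). The log2 fold change, mitochondria over vehicle, was -1.22 ± 0.21 (SE), with a 95% interval of -1.68 to -0.75 and an edgeR adjusted p of 0.0094. Without mitochondria replicate 1, the library that stood apart, it was -0.99 (adjusted p = 0.0019). Without vehicle replicate 2, the library in which Malat1 was highest, it was -1.14, and edgeR's adjusted p of 0.050 lay just above the threshold.

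Neat1 (ENSMUSG00000092274) lies at chr19:5824708-5845478, also on the minus strand. Its annotated transcripts run from 711 to 20771 bases, and the long form covers the whole of the gene. Its level was 244, 297 and 249 CPM in the vehicle libraries and 145, 184 and 162 CPM in the mitochondria libraries, so the lowest vehicle library was above the highest mitochondria library. Means were 263 ± 29.6 CPM for vehicle and 164 ± 19.2 CPM for mitochondria (SD, n = 3 each). The log2 fold change was -0.69 ± 0.12 (SE), 95% interval -0.95 to -0.42, edgeR adjusted p = 0.0099. Without mitochondria replicate 1 it was -0.61 (adjusted p = 0.0081), and without vehicle replicate 2 it was -0.59 (adjusted p = 0.052), no longer past the threshold.

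Miat (ENSMUSG00000097767), a nuclear lncRNA first linked to heart disease, lies at chr5:112213228-112229395 on the minus strand. It had 6 deposited counts in vehicle replicate 1 and 0 in the other 5 libraries, and it was not tested. A count of 0 allows up to 3 fragments, or 12 deposited counts, which is 0.178 to 0.193 CPM in these libraries for counting error alone. Miat was therefore at or under the limit of detection in both groups, and no fold is given.

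Gas5, an RNA that accumulates when cells stop growing and the host of several box C/D snoRNAs, is ENSMUSG00000053332 at chr1:161034422-161038539 on the plus strand. It was at 95.5, 115 and 93.1 CPM with vehicle and 97.4, 108 and 116 CPM with mitochondria. The ranges overlapped, and the lowest and highest libraries were in different groups. The log2 fold change was 0.08 ± 0.11 (SE), with a 95% interval of -0.17 to 0.34, that is, 0.886-fold to 1.27-fold (edgeR adjusted p = 0.66).

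Snhg1 (ENSMUSG00000108414), host of a C/D cluster at chr19:8723475-8726443 (plus strand), was at 30.8, 31.2 and 23.8 CPM with vehicle and at 25.3, 30.3 and 28.6 CPM with mitochondria. The log2 fold change was -0.03 ± 0.14 (SE), 95% interval -0.34 to 0.29 (edgeR adjusted p = 0.92), and its sign turned under several settings given further on. Snhg12 (ENSMUSG00000086290), which hosts box H/ACA and C/D snoRNAs at chr4:132308623-132311024 (plus strand), was at 19.5, 21.8 and 16.1 CPM with vehicle and at 24.5, 25.2 and 27.3 CPM with mitochondria. Here the groups did not overlap, and the log2 fold change was 0.42 ± 0.14 (SE), 95% interval 0.11 to 0.73. Its unadjusted edgeR p was 0.013 and its adjusted p 0.070, so that it did not pass. DESeq2 called it (log2 fold change 0.41, adjusted p = 0.040), and so did edgeR with upper-quartile scaling (0.48, adjusted p = 0.044). 

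Snhg8 (ENSMUSG00000104960, chr3:123507552-123508404, minus strand), which hosts Snora24, was at 10.0, 9.38 and 8.55 CPM with vehicle and at 10.7, 10.5 and 10.4 CPM with mitochondria. The mitochondria libraries lay close together and just above the vehicle libraries, with a log2 fold change of 0.18 ± 0.13 (SE), 95% interval -0.13 to 0.48 (edgeR adjusted p = 0.42). Dancr (ENSMUSG00000106943, chr5:74093060-74095406, plus strand), host of Snora26 and known as an RNA that holds back differentiation, was near the low end of what was detected. It was at 1.47, 1.37 and 1.46 CPM with vehicle and at 1.02, 1.14 and 0.537 CPM with mitochondria. Its groups did not overlap either, but the log2 fold change of -0.67 ± 0.39 (SE) had a 95% interval of -1.55 to 0.21 (edgeR adjusted p = 0.28). It was about as large as that of Neat1 but less precise. In all, the groups did not overlap for 3 of 7 hosts (Snhg8, Snhg12 and Dancr), beside 40.7% of all genes tested.

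Epb41l4aos (ENSMUSG00000087590, chr18:33794892-33795986, plus strand) was at 5.54, 4.55 and 3.0 CPM with vehicle and at 4.36, 4.62 and 4.99 CPM with mitochondria. The mitochondria libraries fell within the vehicle range, and the log2 fold change was 0.09 ± 0.24 (SE), 95% interval -0.46 to 0.65 (edgeR adjusted p = 0.83). Snhg3 (ENSMUSG00000085241, chr4:132348014-132353686, minus strand), the host of the Snora73 genes, varied most among the vehicle libraries, from 1.57 in replicate 1 through 2.91 to 4.50 CPM in replicate 3. With mitochondria it was at 3.07, 2.63 and 2.42 CPM. The log2 fold change was -0.15 ± 0.36 (SE), 95% interval -0.97 to 0.68 (edgeR adjusted p = 0.83). Of the Snhg3 gene, 5592 bases overlap the protein-coding gene Rcc1 on the same strand, and the lncRNA Gm17300 lies within it on the opposite strand. Counts of Snhg3 may hold reads of either, and its value is uncertain. Over the 7 hosts, 4 estimates lay above 0 and 3 below.

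**Figure D2:**
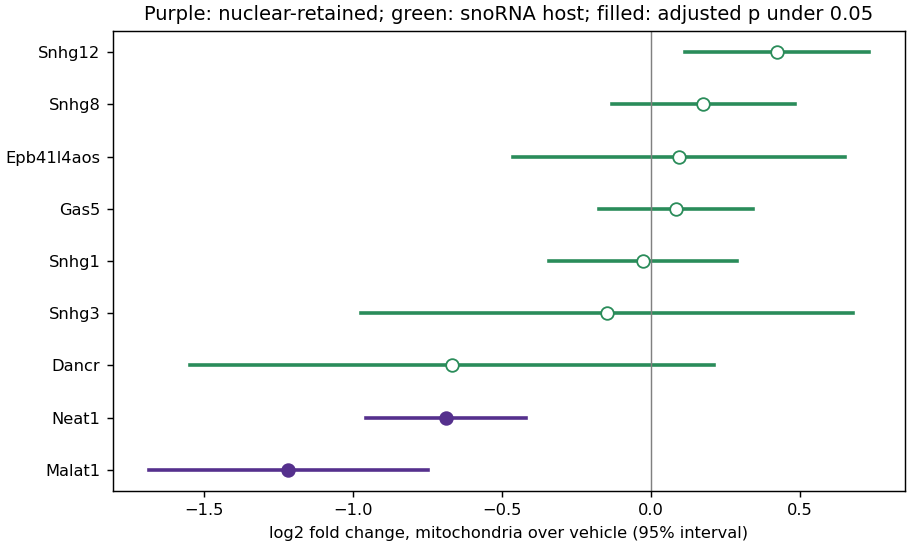
Log2 fold change, mitochondria over vehicle, of the 9 tested lncRNAs, with 95% intervals from the edgeR fit. Purple marks nuclear-retained RNAs, green marks snoRNA hosts, and filled points passed an adjusted p of 0.05. The intervals of Malat1 and Neat1 lie below 0, and among the hosts only the interval of Snhg12 does not reach 0.

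The 2 nuclear-retained RNAs and the hosts were also compared within each library, which does not depend on scaling between libraries. Gas5 was the only host set against Malat1 and Neat1 in the ratios. The ratio of Malat1 to Gas5 counts was 1.66, 1.54 and 1.56 with vehicle and 0.470, 0.760 and 0.682 with mitochondria. Malat1 counts thus outnumbered Gas5 counts in each vehicle library and in no mitochondria library. The ratio of Neat1 to Gas5 was 2.55, 2.59 and 2.67 with vehicle and 1.49, 1.69 and 1.40 with mitochondria. The ratio of Malat1 to Neat1 was 0.651, 0.596 and 0.585 with vehicle and 0.316, 0.448 and 0.488 with mitochondria. None of these 3 ratios overlapped between the groups. Of single genes tested, 40.7% likewise had no overlap in CPM, and no such share was taken over other ratios. For each of the 3 the exact two-sided permutation p was 0.10 (n = 3 per group), before and after adjustment over the 3 ratios. That is the smallest p that 20 assignments of the libraries allow. The mean log2 ratio changed by -1.35 for Malat1 to Gas5, by -0.77 for Neat1 to Gas5 and by -0.57 for Malat1 to Neat1. The nuclear-retained RNAs made up 0.0405% to 0.0490% of all counts with vehicle and 0.0186% to 0.0260% with mitochondria. The hosts made up 0.0155% to 0.0192% and 0.0162% to 0.0187%, which overlap.

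Levels of different genes were compared as FPKM, the number of fragments scaled to depth and divided by gene length. In the vehicle libraries Gas5 (25.0 ± 3.17 FPKM) and Malat1 (21.4 ± 2.26) were highest, with overlapping ranges, followed without overlap by Neat1 (11.8 ± 1.45), Snhg8 (10.1 ± 0.736), Epb41l4aos (9.41 ± 2.70), Snhg1 (8.93 ± 1.29) and Snhg12 (7.40 ± 1.12). Neighbours in that run from Neat1 to Snhg12 overlapped. Snhg3 (2.80 ± 1.39), Dancr (0.560 ± 0.0167) and Miat (0.00301 ± 0.00522) were each lower than the one before, without overlap (SD, n = 3). With mitochondria Gas5 stayed first (25.3 ± 2.30 FPKM) and the next gene, Snhg8 (10.9 ± 0.135), did not reach its range. Malat1 (8.78 ± 2.57) was in place 5, overlapping Snhg12 (9.45 ± 0.588) and Snhg1 (8.35 ± 0.750), and Neat1 (6.99 ± 0.804) in place 7, overlapping Snhg1. Snhg3 (2.39 ± 0.298) and Dancr (0.331 ± 0.119) followed, and Miat was listed at 0.

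These FPKM values rest on the merged exons of each gene. The length implied by counts and FPKM was 20766 bases for Neat1, close to the 20771 bases of its long form, although the short form has 3004. For Gas5 it was 3765 bases, where the median annotated transcript has 629, and for Snhg1 it was 2981 against 630.5. The per-length level of these genes is therefore understated wherever the shorter transcripts prevail, and the table does not tell the forms of Neat1 apart. A fold between groups is not touched by a length that is the same in all libraries.

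The snoRNAs themselves could not be followed. The table holds 28 snoRNA rows inside the 7 hosts, and 155 of their 168 values (92.3%) were 0 or 1 deposited counts, less than 1 fragment. The most counted were Gm23639 in Epb41l4aos, with 9, 6 and 0 counts with vehicle and 3, 7 and 1 with mitochondria, and Snora73a in Snhg3, with 2, 4 and 4 against 3, 2 and 2. Mature snoRNAs carry no poly(A) tail, and a host's level here is not a measure of its snoRNAs.

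Base composition and transcript length moved with the fold changes of all genes, and the lncRNAs are not evenly placed on either scale. The tested genes were ranked by GC content and divided into 10 equal groups. Their median log2 fold change went from -0.57 in group 1, with the lowest GC content, to 0.21 in group 10. In 10 groups by the length of the longest transcript it went from 0.14 in the shortest to -0.32 in the longest. Malat1 (42.5% GC) was in GC group 2, where the median was -0.29, and in the group of longest transcripts. Neat1 (47.3% GC) was in GC group 4, with a median of -0.06, and likewise among the longest. Gas5 (42.3%) and Snhg3 (42.7%) were in GC group 2 and Snhg1 (40.5%) in group 1, so that their estimates near 0 lay above the median of genes of like GC content. Snhg8 (45.7%) was in group 3, Snhg12 (47.6%) in group 4, Dancr (47.9%) in group 5 and Epb41l4aos (55.3%) in group 8. GC content was read from the longest annotated transcript, which has 2556 bases for Gas5 and 2728 for Snhg1. Their median transcripts have 629 and 630.5 bases. The GC groups and offsets of the hosts rest on that choice, and their other transcripts were not tried.

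**Figure D3:**
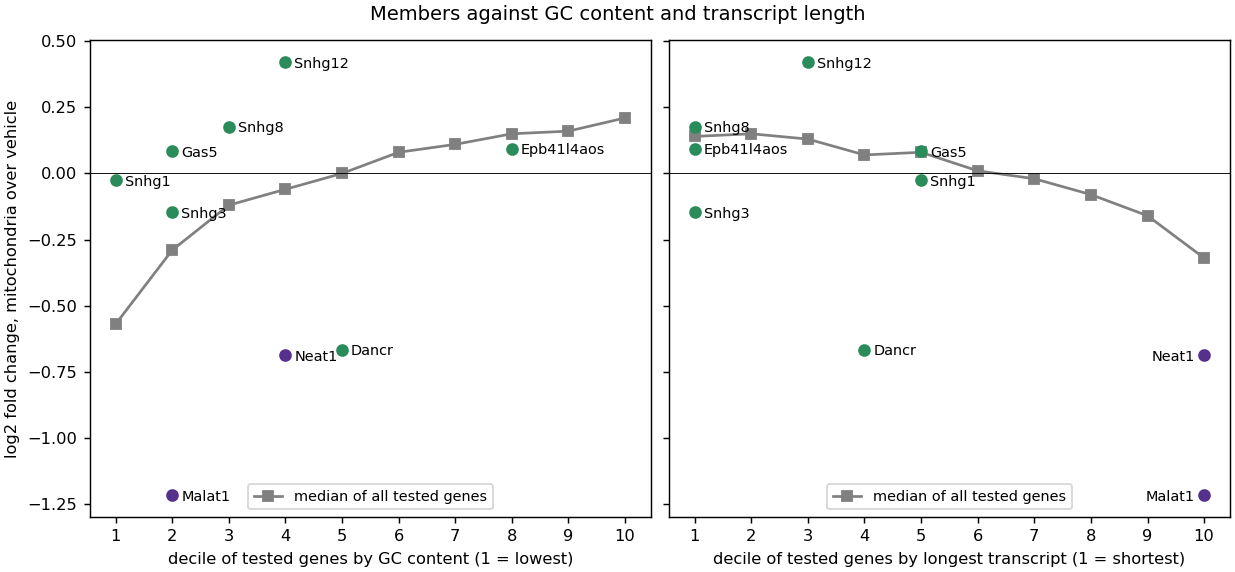
Log2 fold change, mitochondria over vehicle, against the group of tested genes (deciles 1 to 10) by GC content (left) and by longest transcript (right). Grey squares are the median of all tested genes in each group, from -0.57 to 0.21 for GC, purple points are Malat1 and Neat1, and green points are the 7 hosts.

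When the trend with GC content was removed by offsets for each library, Malat1 and Neat1 stayed lower (log2 fold change -0.89 and -0.60, edgeR adjusted p = 0.0021 and 0.0037). That fit called 1740 of 17271 genes higher, and 19.4% of genes in either direction. In it 3 hosts were called higher: Gas5 (0.46, adjusted p = 0.017), Snhg1 (0.48, adjusted p = 0.043) and Snhg12 (0.49, adjusted p = 0.023). With offsets for GC content and length together, Malat1 was at -0.70 (adjusted p = 0.0029), Gas5 at 0.33 (adjusted p = 0.035) and Snhg12 at 0.40 (adjusted p = 0.041), and Snhg1 was not called (0.34, adjusted p = 0.096). Neat1 was then at -0.01 (adjusted p = 0.95), in a fit that called 1848 of 17271 genes higher and 1386 lower. Only 17 of 17271 tested genes have a longest transcript at least as long as the long form of Neat1. With Neat1 entered at its short transcript, with 3004 bases and 51.1% GC, the same offsets gave -0.75 (adjusted p = 0.0037). This setting was chosen after seeing the data and changes the length and the GC content of Neat1 together. No fit changed its length alone.

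**Figure D4:**
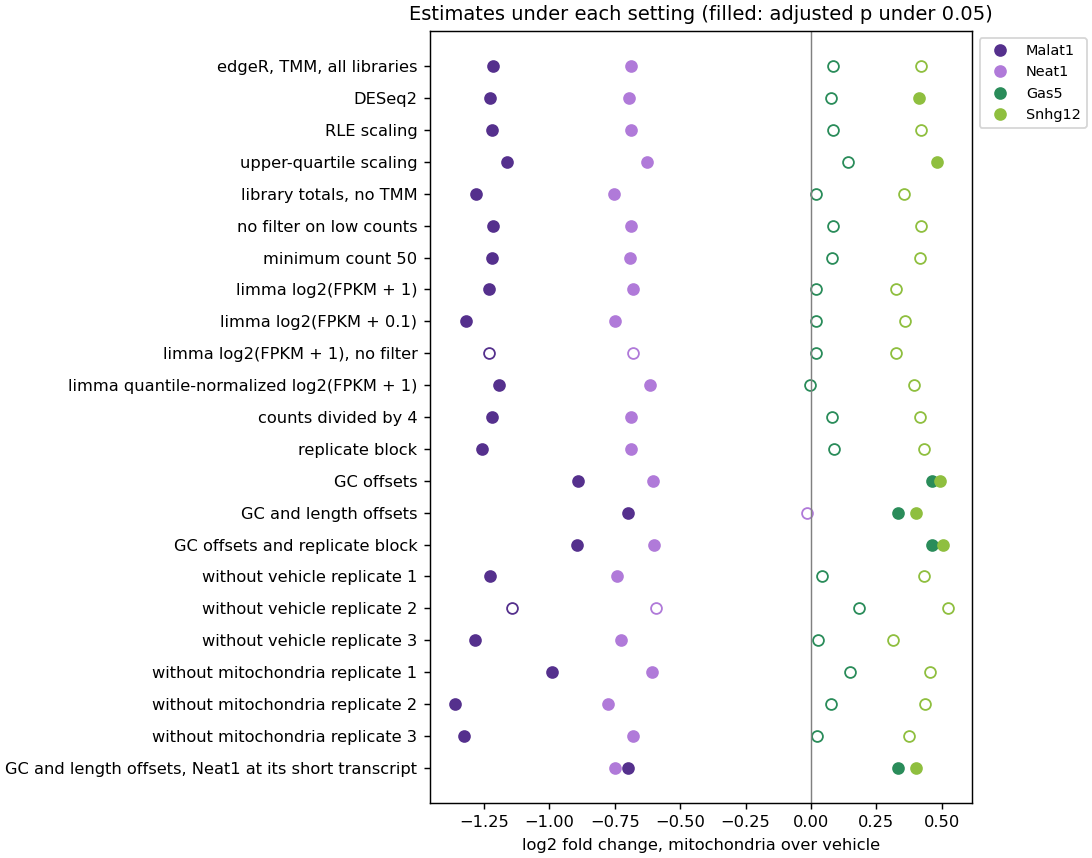
Log2 fold change, mitochondria over vehicle, of Malat1, Neat1, Gas5 and Snhg12 under each setting, with filled points where the adjusted p was under 0.05. Malat1 ranges from -1.36 to -0.70, Neat1 lies near 0 in 1 setting (GC and length offsets), and Gas5 and Snhg12 are both called with GC offsets.

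Other lncRNAs of the same kinds are given beside these. Of 8 other nuclear or chromatin-linked lncRNAs tested, 4 fell and the other 4 did not pass, beside 8.46% of all genes called lower. The median log2 fold change of the 8 was -0.71. Kcnq1ot1, the imprinted antisense RNA that silences its neighbours, was at 5.48, 9.34 and 4.05 CPM with vehicle and at 0.791, 2.59 and 1.17 CPM with mitochondria, a log2 fold change of -2.05 ± 0.47 (edgeR adjusted p = 0.024). Tug1, a widely expressed lncRNA, was at 106, 121 and 120 CPM against 42.1, 78.4 and 75.3 CPM (-0.83 ± 0.21, adjusted p = 0.033). Firre, a repeat-rich X-linked RNA that stays on chromatin, had a log2 fold change of -0.78 ± 0.22 (adjusted p = 0.047), and Meg3, an imprinted RNA, of -0.74 ± 0.17 (adjusted p = 0.022). None of the 4 was called without vehicle replicate 2, without vehicle replicate 3 or without mitochondria replicate 3, and without vehicle replicate 1 Kcnq1ot1 and Meg3 were. Tug1 was at -0.19 with GC offsets (adjusted p = 0.12), and of the 4 only Firre was called with GC and length offsets, where Kcnq1ot1 was at -0.53 (adjusted p = 0.31) and Meg3 at -0.31 (adjusted p = 0.15). The median of the 8 was -0.44 with GC offsets and -0.26 with GC and length offsets.

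Of 12 other snoRNA hosts tested, 2 rose and 1 fell, beside 6.36% of all genes called higher and 8.46% lower. The median of the 12 was -0.02. With GC offsets 3 rose and the other 9 did not pass (median 0.11), in a fit that called 1740 of 17271 genes higher. Zfas1, the host of the Snord12 family, was at 42.4, 29.5 and 31.3 CPM with vehicle and at 63.3, 55.6 and 62.1 CPM with mitochondria (log2 fold change 0.81 ± 0.15, edgeR adjusted p = 0.012). Snhg6 was at 14.0, 13.5 and 10.5 CPM against 19.6, 19.7 and 19.4 CPM (0.62 ± 0.14, adjusted p = 0.022). For both, every mitochondria library was above every vehicle library. Of all genes tested, 40.7% had no overlap between the groups, in either direction. Snhg14, the long imprinted transcript that carries the Snord116 and Snord115 clusters, fell (-1.95 ± 0.46, adjusted p = 0.027), and was at -0.66 with GC offsets (adjusted p = 0.44). None of the 3 was called without vehicle replicate 2 or without vehicle replicate 3. Snhg14 was also not called without vehicle replicate 1, nor Snhg6 without mitochondria replicate 3. Rian, an imprinted host of C/D snoRNAs, did not pass at -0.34 ± 0.12 (adjusted p = 0.083), but was called higher with GC offsets (0.52, adjusted p = 0.020) and with GC and length offsets (0.75, adjusted p = 0.013), and lower by DESeq2 and without mitochondria replicate 2. Snhg4 was left out because its symbol stands on 2 rows, and Snhg9 had too few counts to test.

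**Figure D5:**
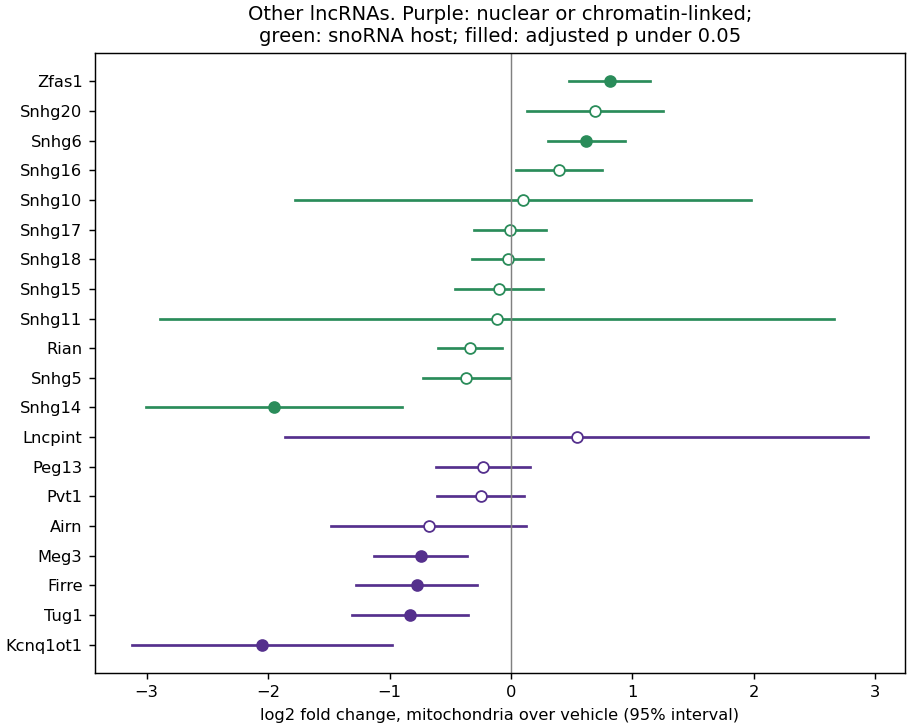
Log2 fold change, mitochondria over vehicle, with 95% intervals from the edgeR fit, of 12 other snoRNA hosts (green) and 8 other nuclear or chromatin-linked lncRNAs (purple). Filled points passed an adjusted p of 0.05: Zfas1 and Snhg6 lie above 0, and Snhg14, Kcnq1ot1, Tug1, Firre and Meg3 lie below.

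The proteins that work with these RNAs are given by list, beside the 14.8% of all genes called in either direction. Of 19 paraspeckle proteins 2 fell by edgeR and 17 did not pass (median -0.10). Hnrnph1, an RNA-binding protein, had a log2 fold change of -0.70 ± 0.16 (adjusted p = 0.022) that turned to 0.02 with GC offsets. Rbmx had one of -0.45 ± 0.13 (adjusted p = 0.049). Of 17 speckle proteins and splicing factors 1 fell and 16 did not pass (median -0.05). It was the SR protein Srsf1, with a log2 fold change of -0.43 ± 0.10 (adjusted p = 0.024) that turned to 0.07 with GC offsets. Of 16 proteins that form or assemble snoRNA particles 2 rose and 14 did not pass (median -0.01): Ruvbl2, an ATPase of the assembly complex (0.51 ± 0.11, adjusted p = 0.021), and Znhit3, an assembly factor (0.50 ± 0.13, adjusted p = 0.034). The methyltransferase Fbl and the pseudouridine synthase Dkc1 were among those that did not pass. With GC offsets Rbmx was not called (-0.23, adjusted p = 0.18) and the counts shifted: 4 paraspeckle proteins rose (Hnrnpa1, Hnrnpk, Nudt21 and Tardbp), 2 speckle proteins rose and 2 fell, and 4 proteins of the snoRNA particles rose and 1 fell, in a fit that called 19.4% of all genes.

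The factors that degrade such RNAs are likewise read beside 14.8% of all genes called. Of 15 genes of nonsense-mediated decay 3 fell and 1 rose, with a median of 0.14. Upf2, which activates the helicase Upf1, went from 34.5, 43.3 and 39.7 CPM to 6.56, 18.9 and 18.0 CPM (log2 fold change -1.43 ± 0.34, edgeR adjusted p = 0.026). Its partner Upf3b (-1.19 ± 0.18, adjusted p = 0.0072) and the kinase Smg1 (-0.84 ± 0.24, adjusted p = 0.049) fell, and Smg9, which binds Smg1, rose (0.54 ± 0.13, adjusted p = 0.032). Of 16 genes of the nuclear exosome and of Malat1 end processing 3 fell and 13 did not pass (median -0.04). They were Zfc3h1, which brings polyadenylated nuclear RNA to the exosome (-1.40 ± 0.26, adjusted p = 0.013), the nuclease Dis3 (-0.62 ± 0.17, adjusted p = 0.042) and the core subunit Exosc9 (-0.42 ± 0.12, adjusted p = 0.049), which was at 0.00 with GC offsets. Upf2, Upf3b and Zfc3h1 were also called with GC offsets and with GC and length offsets, whereas Smg9 (0.32, adjusted p = 0.068) and Dis3 (-0.35, adjusted p = 0.065) were not called with GC offsets. Smg1 was at -0.67 (adjusted p = 0.027) with GC offsets and at -0.21 (adjusted p = 0.20) with GC and length offsets. Of 16 other genes with a pyrimidine-rich start, mostly of translation, Eif3h (0.34 ± 0.08, adjusted p = 0.028) and Tpt1 (0.31 ± 0.07, adjusted p = 0.024) rose and Eef1a1 fell (-0.46 ± 0.11, adjusted p = 0.024), with a median of 0.10. With GC offsets that median was 0.14, and 4 of the 16 rose and 1 fell, in a fit that called 19.4% of all genes. With GC and length offsets Tpt1 was not called (0.14, edgeR adjusted p = 0.14).

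Among the genes beside the lncRNAs, some of which share sequence with them, 1 of 11 fell and 1 rose. Of all genes tested, 8.46% were called lower and 6.36% higher, so these counts lay near the general share. Zbtb37, a zinc finger gene that overlaps Gas5 by 428 bases on the opposite strand, was at 15.9, 17.0 and 17.0 CPM with vehicle and at 3.41, 8.07 and 6.31 CPM with mitochondria (log2 fold change -1.49 ± 0.27, edgeR adjusted p = 0.012). Gas5 did not pass in the same libraries without offsets, and Zbtb37 counts were 0.0350 to 0.183 of Gas5 counts. With GC offsets Zbtb37 was at -1.11 (edgeR adjusted p = 0.0038), and with GC and length offsets at -0.58 (adjusted p = 0.012). Gas5 was called higher in those fits. Whether the counting used strand is not given in the sources used here, so reads in the shared 428 bases cannot be assigned. Slc3a2, an amino acid transporter subunit that lies next to Snhg1, rose (0.48 ± 0.12, adjusted p = 0.028). Rcc1, the exchange factor of the GTPase Ran, was at 0.35 ± 0.11 (adjusted p = 0.065). Frmd8, which lies near Neat1, was at 0.31 ± 0.13 and did not pass (adjusted p = 0.14). Among the protein-coding genes of these lists of partners, decay factors and neighbours, Upf3b alone was called when vehicle replicate 2 or vehicle replicate 3 was left out.

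The profile over libraries most like that of Malat1 was sought among all tested genes by Pearson correlation of log2 CPM over the 6 libraries. The highest were Gm42913 (0.9992), Adam5 (0.999) and Esf1 (0.9986). Esf1 was at 26.5, 30.3 and 25.2 CPM with vehicle and at 5.26, 12.1 and 10.6 CPM with mitochondria, while Gm42913 did not exceed 0.535 CPM and Adam5 1.84 CPM. For Gas5 they were Cass4 (0.9853), Gata6os (0.9711) and Gm44503 (0.9636), all at 2.23 CPM or less and at 0 in 3 libraries. With 6 libraries and 17290 genes, correlations of this size are a description only.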

How the data were processed

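Poly(A)-selected RNA from 6 libraries was sequenced in read pairs, per the labels' protocols. The authors deposited 1 table with an FPKM value (normalised by them for gene length and depth) and an estimated count (expected count, whole numbers, not normalised) per gene and library. The submitters' processing notes name HISAT2 2.0, StringTie 1.3.0 and Bowtie 0.12.2 and the build mm8, with no role given. The deposited coordinates matched GRCm38 instead: of 28732 gene identifiers found in GENCODE M21, 25914 (90.2%) had the same start and end. Coordinates here are 1-based GRCm38. In 1261 single-transcript genes the ratio of deposited count to FPKM in a library, once scaled, deviated by 0.211% at the 90th percentile. Depth was 63547854 to 66293786 deposited counts per library, each about 4 times the number of fragments, and the intervals given cover the spread between libraries.

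The whole table was fitted with edgeR 4.0.16 (R 4.3.3). Genes were kept by filterByExpr at a minimum count of 10, libraries were scaled by TMM, and group was the sole term of a two-sided quasi-likelihood test. P-values were adjusted by Benjamini-Hochberg over the 17290 genes kept, with a threshold of 0.05. The SE was obtained by dividing the size of the log2 fold change by the root of the F statistic. CPM values carry the TMM factors. In simulated counts of this design, with 200 genes changed, 55% of 2-fold and 70% of 4-fold changes were recovered and 4.6% of calls were false. Alternatives used DESeq2 1.42.0, limma 3.58.1 on log2(FPKM + 1), other scalings and filters, each library left out, the replicate number as a block, and loess offsets (span 0.5) for GC content and for length of the longest GENCODE transcript. The genes and lists were chosen with earlier results of these data known. All 10 lncRNAs are named. From other lists, genes past the threshold are named, at most the 4 of largest change. Fbl, Dkc1, Rcc1, Frmd8, Rian, Prg4 and Acp5 were added after their values were seen. So were Dmp1, Sost, Phex, Adgre1, Csf1r, Ptprc, Cd68, Col2a1 and the paraspeckle genes called with GC offsets. No set test was run. The values of 1 neighbouring gene are not reported here.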

Additional observations from a re-analysis of the deposited data

How the results depend on the processing

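Without vehicle replicate 2, 0 nuclear-retained lncRNAs were called (the range over the 6 omissions was 0 to 2), and limma on log2(FPKM + 1) with no filter also called 0 (adjusted p = 0.054 for Malat1 and 0.052 for Neat1), with 26043 genes to adjust over. GC and length offsets called 1, and 2 with Neat1 at its short transcript. Of the snoRNA hosts, 1 was called by DESeq2 and 1 with upper-quartile scaling, 3 with GC offsets, 3 with GC offsets and the replicate block, and 2 with GC and length offsets, also with Neat1 at its short transcript. In that order these fits called 24.7%, 16.2%, 19.4%, 17.5%, 18.7% and 18.8% of all genes in either direction. Whichever library was left out, 0 hosts were called by edgeR.

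The labels do not say that replicate numbers pair the libraries. Residuals of same-number libraries correlated at 0.0296, 0.0058 and -0.019, other pairs at -0.0275 to 0.0245. These values cannot tell if same-number libraries shared a mouse or culture. With the number as a block, 2 nuclear-retained RNAs and 0 hosts were called (Malat1 -1.26, adjusted p = 0.011; Neat1 -0.69, adjusted p = 0.0073; Snhg12 0.43, adjusted p = 0.11).

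Signs turned for 4 lncRNAs with estimates near 0, for Rian, and for the called genes Hnrnph1, Srsf1 and Exosc9 (-0.70, -0.43 and -0.42), and the cause was not tested. Gas5 was at -0.0037 and Snhg3 at 0.037 with quantile-normalised FPKM. Snhg1 was at 0.031 with upper-quartile scaling. Over the omissions of 1 library it ranged from -0.14 to 0.043, above 0 when mitochondria replicate 1, or either of vehicle replicates 1 and 2, was left out. Without vehicle replicate 3, Snhg3 was at 0.27 (range -0.46 to 0.27) and Epb41l4aos at -0.12 (range -0.12 to 0.30). With GC offsets, GC and length offsets, and GC offsets with the block, in that order, Snhg1 was at 0.48, 0.34 and 0.48, Snhg3 at 0.24, 0.053 and 0.30, Epb41l4aos at -0.043, -0.095 and -0.0093, Hnrnph1 at 0.023, 0.039 and 0.021, Rian at 0.52, 0.75 and 0.50, and Srsf1 at 0.072, 0.17 and 0.065. Exosc9 was at 0.0010 with GC offsets. With Neat1 at its short transcript, Snhg1 was at 0.34, Snhg3 at 0.053, Epb41l4aos at -0.095, Hnrnph1 at 0.038, Rian at 0.75 and Srsf1 at 0.17.

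Over all genes, 1099 were higher and 1463 lower. The counts were 357 and 507 with no filter, 161 and 301 with limma and no filter, 810 and 1724 without TMM, 1740 and 1618 with GC offsets, 1848 and 1386 with GC and length offsets, and 1851 and 1389 with Neat1 at its short transcript. Leaving out vehicle replicate 2 gave 130 and 316, vehicle replicate 3 gave 132 and 310, and mitochondria replicate 3 gave 398 and 734. At the depth of these libraries Miat was not detectable, and the intervals of Dancr and Snhg3 were the widest among the hosts.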
